A study of Caenorhabditis elegans with 18 samples.

Results

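LEM-2 contact was compared between 2 groups of early Caenorhabditis elegans embryos that differ in which of 2 short intervals of chromosome III carry reads. The first group was chosen by its reads at those intervals: columns b and c of the strain labelled set-25(n5021), in which both III 8376501 to 8377500 and III 13287501 to 13289000 were empty. The second group was the strain met-2(n4256), columns a to c, in which the first of these intervals was empty and the other was covered. The group lacking both holds 4 of the 18 libraries of the study, 2 IP and 2 input, and the met-2 group holds 6, of which 3 are IP and 3 are input. Column a of the set-25 label lacks the second interval alone, and the wild type N2 (Bristol) lacks neither. The 4 libraries lacking both are therefore called that here, and not by the strain on their label. All embryos were taken before the bean stage from synchronised worms kept at 20 °C for 60 to 65 h, a time that varied by strain, with 3 IP and 3 input libraries in each labelled strain, and both mutant alleles are placed on chromosome III by the labels. No interval was assigned to a gene, and the genotype of the 4 libraries was not established by any source used here.

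LEM-2 is an integral protein of the inner nuclear membrane with a LEM domain, and chromatin immunoprecipitated with it marks DNA near the nuclear periphery. In the wild type, autosome arms and the left end of X are in contact with the membrane and autosome centres are not. MET-2, the worm relative of SETDB1, makes mono- and dimethylated H3K9, and SET-25 makes trimethylated H3K9. In worm embryos these marks hold repeat-rich arms at the periphery. The comparison addresses where LEM-2 contact differs when both intervals are absent and not the first alone.

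The reads that chose the libraries are given as a description. At the first interval the IP libraries lacking both, columns b and c, had 0 and 1 reads and their inputs 0 and 0, against 5, 0 and 0 reads in met-2 IP a to c and 3, 0 and 1 in met-2 inputs a to c. At the second interval the 4 libraries lacking both had 0 reads each, against 329, 98 and 267 in met-2 IP a to c and 655, 465 and 428 in their inputs. Thus the first interval is empty in both groups and the second separates them. Just outside the rule, column a of set-25 had 234 IP and 684 input reads at the first interval and 3 IP and 4 input reads at the second. The 9 windows around both intervals were left out of all averages.

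Enrichment is the log2 IP value less the average input value of the same group, so 0 stands for input level. The IP libraries lacking both held 31.0 M and 25.7 M reads, against 33.1 M, 8.73 M and 26.2 M in met-2 IP a, b and c, and inputs of the 5 held 32.3 M to 59.5 M. Column b of met-2 is thus the shallowest of the 18 libraries, which reach 64.5 M. The groups also differed elsewhere in their input. V 1646001 to 1647500 was missing from the libraries lacking both and present in met-2. Input over the 215 kb of V 2348001 to 2563000 stood at 76.4% and 80.8% of the library median in the libraries lacking both, against 156%, 178% and 190% in met-2. Both differences also varied within labels. At V 1646001 to 1647500 input reads were 0 in N2 column a, against 471 and 541 in N2 columns b and c. Column a of set-25 had 791. Over the 215 kb, input stood at 41.9% in N2 column a, against 177% and 184% in N2 columns b and c. Column a of set-25 stood at 166%. The absence of the second interval and these other differences between the groups cannot be told apart.

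LEM-2 profiles of the libraries lacking both had autosome arms and centres further apart than met-2 profiles, and both groups stayed far below N2. Each chromosome was cut into 3 equal lengths, its left, middle and right part. The arm contrast, which is the mean enrichment of all outer parts of autosomes less the mean of all middle parts, was 0.47 and 0.35 in the libraries lacking both, against 0.17, 0.29 and 0.31 in met-2. All values of the libraries lacking both lay above those of met-2, with the narrowest gap between the c columns. The means were 0.41 ± 0.08 (SD, n = 2) and 0.26 ± 0.07 (SD, n = 3), a difference of 0.16 on the log2 scale. An exact two-sided permutation test gave p = 0.2, which is the smallest p that 2 against 3 libraries allow, and 0.4 after Benjamini-Hochberg adjustment over 2 contrasts. N2 libraries had 1.20, 0.83 and 0.83, and column a of set-25 had 0.78, so the libraries lacking both had 43.5% and met-2 27.0% of the N2 mean. In whole embryos, contact in fewer cells and weaker contact in each cell cannot be told apart. Without column b of the libraries lacking both, the difference was 0.080, and without column c it was 0.23. When each profile was divided by its own SD over bins, the groups overlapped, with 0.94 and 0.87 in the libraries lacking both and 0.79, 0.89 and 0.72 in met-2.

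On X the left end contacts the membrane in the wild type, and the groups overlapped in a contrast of the whole left part with the rest. That left part reaches well beyond the end and averaged below input level in N2, at -0.36, -0.26 and -0.29. The X left contrast, the left part of X less the rest, was 0.022 and 0.028 in the libraries lacking both, against 0.012, 0.036 and 0.017 in met-2. The met-2 values lay on either side of those lacking both, and the difference of 0.0031 gave p = 0.8 in the exact permutation test. N2 had 0.23, 0.16 and 0.17, and column a of set-25 had 0.17. Column a of set-25, with the first interval present, thus lay within the N2 values, and all 5 libraries without that interval lay below them.

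**Figure D1:**
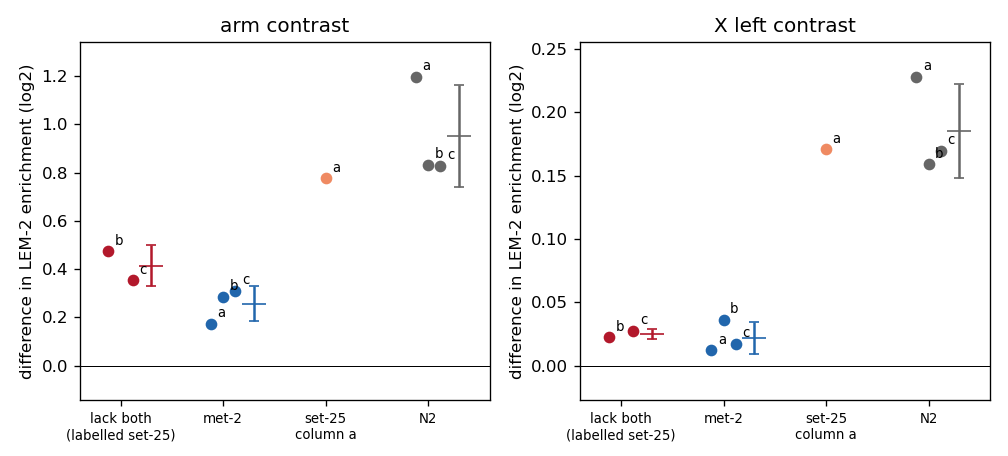
Arm contrast (left) and X left contrast (right) on the log2 scale, 1 point per IP library marked with its column letter, with mean and SD beside groups of more than 1. Arm contrasts of the libraries lacking both, 0.47 and 0.35, lie above the highest met-2 value of 0.31, and the X left contrasts of both groups lie below 0.04.

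The spread of enrichment over the 10029 bins of 10 kb overlapped between the groups. Its SD was 0.50 and 0.41 in the libraries lacking both, against 0.22, 0.32 and 0.43 in met-2, so column c of met-2 lay between them. N2 profiles had 0.86, 0.65 and 0.65, and column a of set-25 had 0.63. The slope of a profile on the N2 mean was 0.62 and 0.49 in the libraries lacking both, against 0.25, 0.38 and 0.51 in met-2. Again column c of met-2 lay above column c of the libraries lacking both. As a description over bins, which share depth and inputs, Pearson's r was 0.973 between the profiles lacking both, 0.891 to 0.928 between the groups and 0.907 to 0.942 within met-2.

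By region, the groups were apart in the autosome centres. Their mean enrichment was -0.38 and -0.29 in the libraries lacking both, against -0.11, -0.21 and -0.26 in met-2 and -0.99, -0.68 and -0.70 in N2. Both libraries lacking both lay below all met-2 libraries, with a difference of means of -0.14. In the outer parts of the autosomes the values were 0.091 and 0.064 against 0.064, 0.073 and 0.055 in met-2, an overlap, and the difference of 0.013 turned to -0.046 when profiles were divided by their SD. X gave -0.16 and -0.14 in the libraries lacking both, against -0.10, -0.19 and -0.27 in met-2, also an overlap. The overlap on X remained after median-centring. After division by the SD the groups were apart on X, with -0.33 and -0.35 against -0.45, -0.59 and -0.62 in met-2. Of all bins, 19.6% had both values lacking both under every met-2 value and 19.9% had both over them. In the autosome centres, 38.9% of 2754 bins were lower without overlap and 7.52% higher.

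Of the 18 chromosome parts, 0 (0.0%) passed limma's test on the difference of IP and input at adjusted p under 0.05, with 3 parts at unadjusted p under 0.05. These 3 were the middle parts of III, V and II. Chromosome III's centre had -0.59 and -0.45 in the libraries lacking both, against -0.19, -0.30 and -0.40 in met-2. The V centre had -0.25 and -0.18, against -0.017, -0.095 and -0.085 in met-2. Their groups did not overlap, with differences of -0.22 ± 0.08 (SE, limma adjusted p = 0.181) and -0.15 ± 0.05 (SE, limma adjusted p = 0.181). The II centre differed by -0.16 (limma adjusted p = 0.295), with -0.46 and -0.34 against -0.14, -0.25 and -0.32 in met-2. All 5 autosome centres were lower in mean, 4 of them without overlap, while the 10 outer parts of autosomes differed by -0.034 to 0.076. Of the 10 outer parts 4 were also without overlap, and of all 18 parts 9 were. The I centre was apart only narrowly, with column c of both groups at -0.34. With median-centred profiles limma passed 3 parts, the same 3 centres, and with profiles divided by their SD it passed 4. The 4 were the centres of III and V, lower, and the left and right parts of X, higher.

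Bins were also sorted into 5 classes of equal size by their N2 enrichment. In the class that N2 has farthest from the membrane, the libraries lacking both averaged -0.73 and -0.58, against -0.26, -0.43 and -0.59 in met-2. In the class with most LEM-2 in N2 they averaged 0.53 and 0.43, against 0.26, 0.35 and 0.44 in met-2. Column c of met-2 overlapped the libraries lacking both in both classes. From the lowest class to the highest the difference of means was -0.23, -0.083, 0.0011, 0.050 and 0.13. After division by the SD these 5 values were -0.15, -0.0094, 0.041, 0.016 and -0.045, so the sign of the highest class turned and that of the lowest did not. The share of bins lower without overlap was 39.2% in the lowest class and 4.09% in the highest, and the share higher without overlap was 0.0997% and 35.7%.

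**Figure D2:**
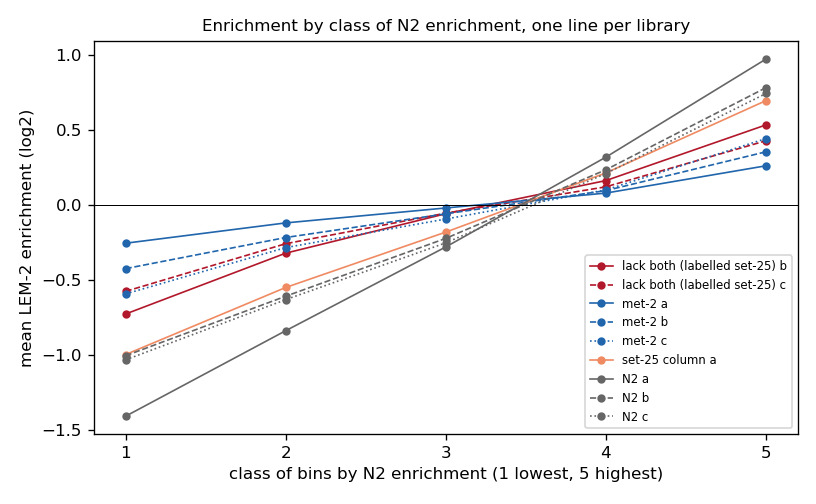
Mean LEM-2 enrichment (log2 IP minus input) in 5 classes of bins ordered by N2 enrichment, 1 line per IP library. Lines of the libraries lacking both run from -0.73 and -0.58 to 0.53 and 0.43, between those of N2 and those of met-2 columns a and b, with met-2 column c close to column c of the libraries lacking both.

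Distance from the chromosome end gave a further view of X. Over its outermost 2 Mb at each end, enrichment was 0.12 and 0.084 in the libraries lacking both, against 0.023, 0.00066 and -0.047 in met-2. The groups did not overlap there, with a difference of 0.11, nor did they after median-centring, with 0.12, or after division by the SD, with 0.22. In the outermost 0.5 Mb of X the libraries lacking both had 0.33 and 0.25, against 0.19, 0.17 and 0.16 in met-2, 0.47 in column a of set-25 and 0.43, 0.36 and 0.34 in N2. From 0.5 to 1 Mb and from 1 to 2 Mb their means were 0.017 and 0.052. Means there were -0.073 and -0.065 in met-2 and -0.082 and -0.034 in N2. In these 2 zones the libraries lacking both thus lay above N2 as well as met-2. Column a of set-25 did so too, with 0.066 and 0.073. Beyond 6 Mb from the ends of X the values were -0.28 and -0.24 against -0.14, -0.26 and -0.34 in met-2, an overlap. The outermost 2 Mb of autosomes averaged 0.31 and 0.23, against 0.17, 0.21 and 0.22 in met-2. That difference of 0.068 turned to -0.058 after division by the SD.

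Over 100-kb segments limma called 50 of 1005 at adjusted p under 0.05. The libraries lacking both were lower in 45 (4.48%) and higher in 5 (0.498%). Among the lower ones 30 lay in the 275 segments of autosome centres and 15 in the 552 outer ones, and none lay among the 178 of X. Of the higher ones 2 lay on X and 3 in outer parts of autosomes. In all 50 segments the groups did not overlap, and all 50 also passed limma's test on IP values alone. Both properties rest on the values that the calls used. Among all 1005 segments, 23.8% were lower without overlap and 23.6% higher. Input differed between the groups by -0.027 to 0.13 in the lower segments and by -0.022 to 0.038 in the higher ones.

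Fits were repeated with 1 IP library and the input of the same letter left out. How many segments pass rests on single column letters. The number was 1 without column b of the libraries lacking both, 27 without their column c, 41 without met-2 column a, 7 without met-2 column b and 292 without met-2 column c. The direction of all 50 held in each of these 5 fits. This adds no separate support, because the 50 were called on the same libraries and their groups did not overlap. The 1 segment passing in all of them was V 8500001 to 8600000, and 6 others passed in 4 of them. With all 18 libraries in the fit, 13 segments passed, all of them among the 50. After division by the SD, 213 passed, with 119 lower and 94 higher, and 48 of the 50 were among them.

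**Figure D3:**
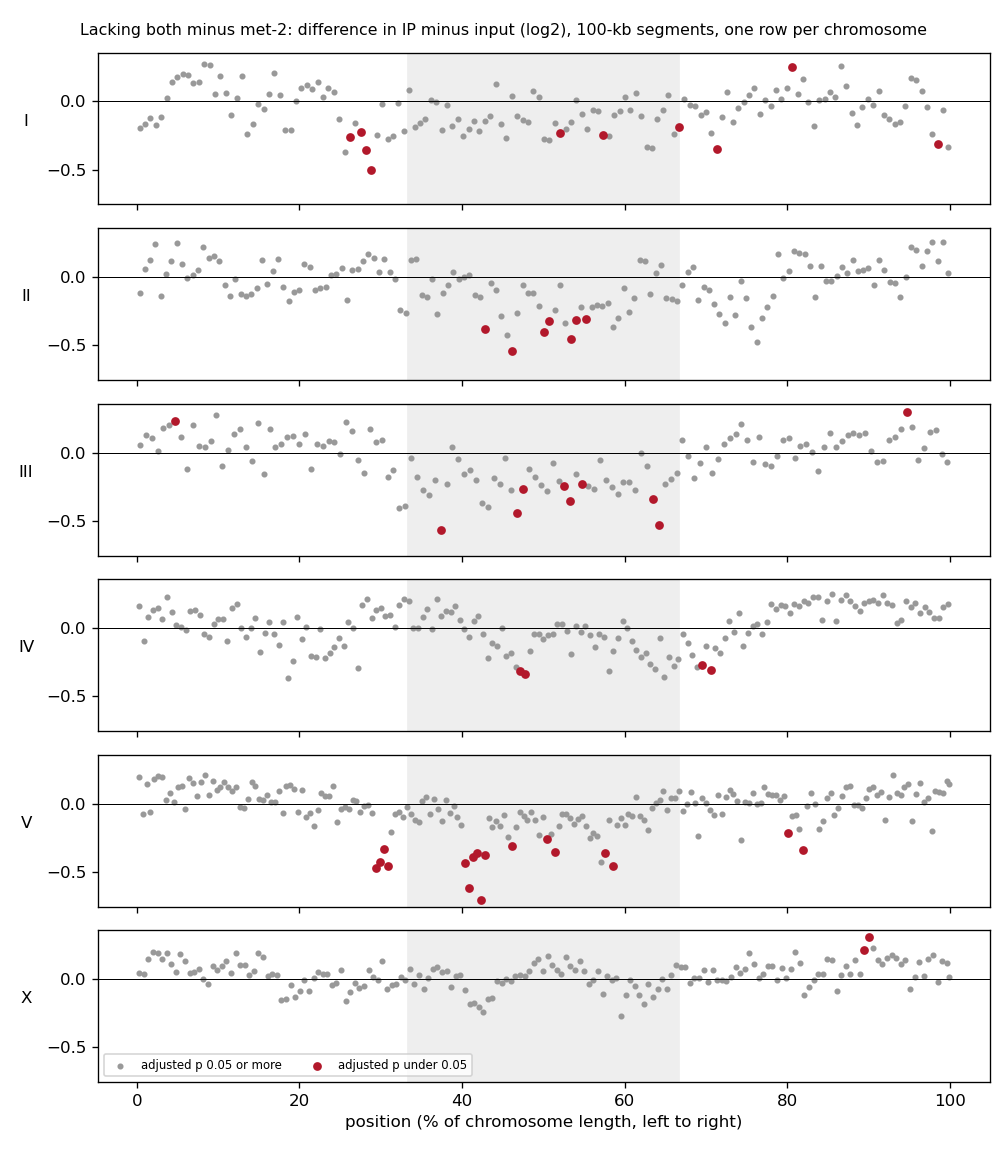
Difference in LEM-2 enrichment, libraries lacking both minus met-2 (log2), for 1005 segments of 100 kb against position as percent of chromosome length, with called segments in red and the middle part of each chromosome shaded. The 45 lower segments gather in shaded centres and in runs on V and I, and the 5 higher ones are on I, III and X.

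The longest run of called segments was V 8400001 to 9000000, 6 segments in the middle part of V. Its mean enrichment was -0.55 and -0.43 in the libraries lacking both, against 0.032, -0.011 and -0.041 in met-2. N2 had -0.57, -0.51 and -0.51 there and column a of set-25 had -0.64. Averaged over the run the met-2 libraries therefore stood at input level, and the libraries lacking both stood near N2. Single segments departed from N2 both ways. The libraries lacking both had means of -0.52 against -0.73 in N2 at V 8500001, and -0.80 against -0.42 at V 8800001. Column a of set-25 had -0.86 and -0.80 in these segments. Over the run the difference between the libraries lacking both and met-2 was -0.48. In this run, which its calls had picked out, 59 of the 60 bins were lower without overlap, against the 19.6% of all bins. In the 500 kb to its left the difference was -0.064, with -0.049 and -0.021 against 0.048, -0.017 and 0.056 in met-2. In the 500 kb to its right it was -0.13, with -0.19 and -0.14 against 0.011, -0.066 and -0.042 in met-2. N2 was depleted in both flanks as well, at -0.37 and -0.61, so the flanks and the run had N2 depletion in common and differed in the values of the libraries lacking both.

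The segment with the largest difference was V 8800001 to 8900000 in this run, with -0.92 and -0.69 in the libraries lacking both, against -0.036, 0.0036 and -0.27 in met-2. The libraries lacking both lay below every met-2 library, and also below N2, which had -0.33, -0.45 and -0.48. Column a of set-25 was below N2 there as well, at -0.80. The fitted difference was -0.71 ± 0.14 (SE, limma adjusted p = 0.0104). For V 8500001 to 8600000 it was -0.62 (limma adjusted p = 7.98e-05). With 1 IP library and the input of its letter left out, this value ran from -0.67 to -0.57.

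**Figure D4:**
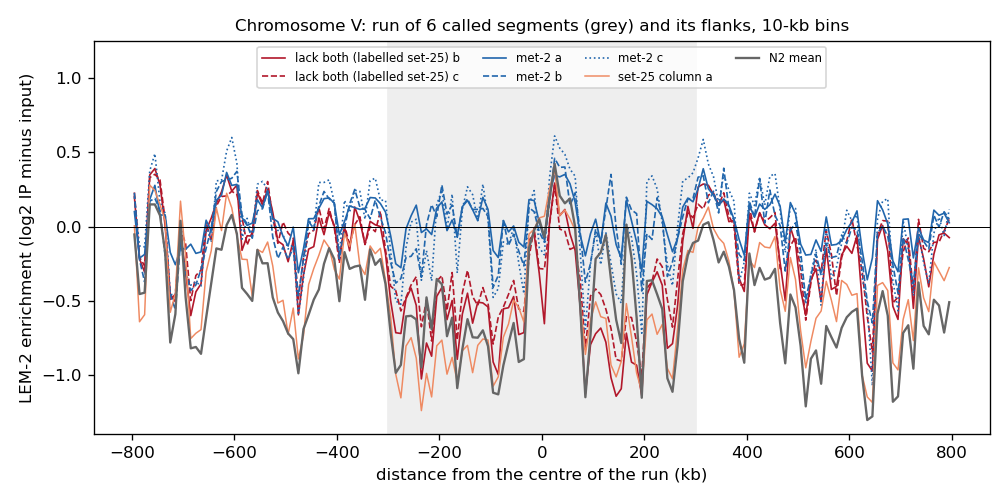
LEM-2 enrichment (log2 IP minus input) in 10-kb bins against distance in kb from the centre of the run on V, with the run shaded. Red lines of the libraries lacking both average -0.55 and -0.43 inside the shaded run, blue lines of met-2 average 0.032, -0.011 and -0.041 there while single bins move up and down, and the difference of means is -0.064 in the 500 kb to the left against -0.48 in the run.

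A pair of shorter runs also had met-2 at input level. V 6100001 to 6500000, 4 segments in the left part of V, had -0.51 and -0.36 in the libraries lacking both, against 0.027, -0.020 and -0.040 in met-2. N2 had -0.90, -0.69 and -0.71 there, and 39 of 40 bins of this run, picked out in the same way, were lower without overlap, against the 19.6% of all bins. I 4100001 to 4400000, 3 segments in the left part of I, had -0.42 and -0.32, against 0.014, -0.017 and -0.015 in met-2 and -0.98, -0.74 and -0.74 in N2. In both runs the libraries lacking both lay below met-2 and above N2, whereas in the long run they were close to N2 only as an average. The remaining 30 runs were of 1 or 2 segments, such as III 8700001 to 8900000 with -0.73 and -0.57 against -0.13, -0.22 and -0.29 in met-2. Over all 45 lower segments met-2 means lay within 0.1 of input level in 16. The share among all segments was not counted. Medians over all bins were also within 0.1 of input level in met-2, at -0.033, -0.065 and -0.093.

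In 42 of the 45 lower segments N2 was below input level, and in the other 3 it was above. Most bins are below input level in N2 as well: of the 5 equal classes by N2 enrichment, classes 1 to 3 end at -0.014. The segment I 14800001 to 14900000, near the right end of I, had -0.38 and -0.27 in the libraries lacking both, against -0.0046, 0.030 and -0.062 in met-2. N2 was enriched there, with 0.30, 0.14 and 0.22, and column a of set-25 had -0.13. V 17100001 to 17200000, in the right arm of V, had -0.42 and -0.31, against 0.012, 0.015 and -0.11 in met-2 and 0.68, 0.49 and 0.49 in N2. Here column a of set-25 had 0.079, above the libraries lacking both and below N2. V 16700001 to 16800000 had -0.051 and -0.041, against 0.15, 0.18 and 0.18 in met-2 and 0.50, 0.37 and 0.37 in N2. In these 3 segments the libraries lacking both were farther from N2 than met-2 was. Their fitted differences were -0.32, -0.34 and -0.22. Of these calls, I 14800001 and V 17100001 passed without met-2 column c and in no other fit with 1 column letter left out. V 16700001 passed without met-2 column a or c. None of the 3 passed with median-centred values, all 18 libraries, voom weights or log2 of summed reads, and input at V 17100001 stood at 251% of the median.

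The 5 higher segments lay outside the chromosome centres. X 15800001 to 16000000, 2 segments near the right end of X, had 0.36 and 0.30 in the libraries lacking both, against 0.018, 0.094 and 0.085 in met-2. The libraries lacking both were also above N2, which had 0.10, 0.13 and 0.11, and above column a of set-25 with 0.24. Input at X 15800001 to 15900000 stood at 306% of the median. That segment did not pass with all 18 libraries, voom weights, log2 of summed reads or the band of input coverage. X 15900001 to 16000000, with input at 89.4% of the median, passed in each of these. I 12100001 to 12200000 had 0.30 and 0.28, against 0.039, 0.056 and 0.023 in met-2 and 0.58, 0.41 and 0.38 in N2. III 13000001 to 13100000 had 0.77 and 0.66, against 0.30, 0.44 and 0.51 in met-2, with a limma adjusted p of 0.0475. III 600001 to 700000 had 0.54 and 0.47, against 0.22, 0.30 and 0.31 in met-2. Neither segment on III passed with median-centred values, division by the SD, all 18 libraries, voom weights or log2 of summed reads. None of the 5 passed without column b or without column c of the libraries lacking both, or without met-2 column b.

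**Figure D5:**
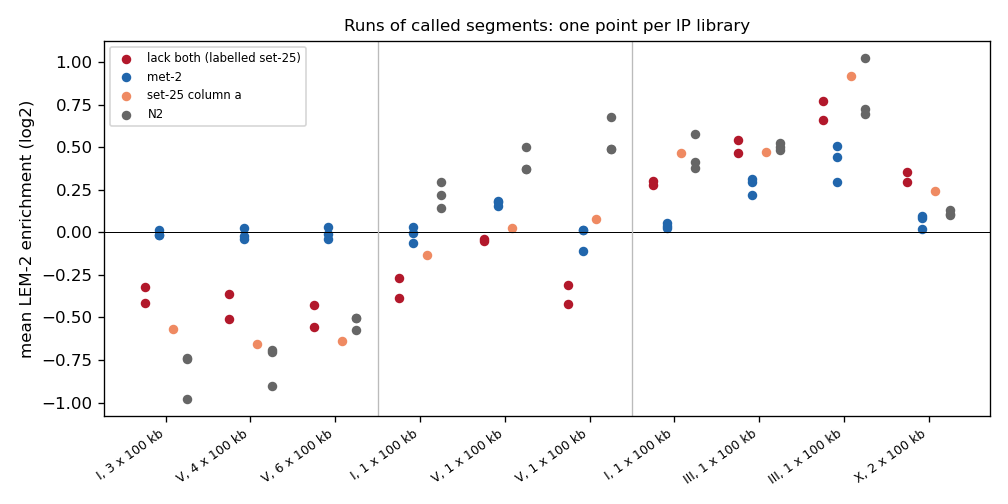
Mean LEM-2 enrichment (log2) in the 3 longest runs of lower segments, the 3 lower segments that are enriched in N2, and the 4 runs of higher segments, 1 point per IP library, named by chromosome and number of 100-kb segments. In each, the 2 points of the libraries lacking both lie apart from the 3 of met-2, and in the middle group they also lie on the far side of met-2 from N2.

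At 10 kb, limma called 49 of 10029 bins lower (0.489%) and 0 higher (0.0%). At unadjusted p under 0.05, 894 were lower and 526 higher, and limma with voom weights called 50 lower and 5 higher. Of the 49, 28 lay on V, 10 on III, 5 on I, 5 on II, 1 on IV and none on X, where V holds 20.9%, III 13.8%, I 15.0%, II 15.2%, IV 17.4% and X 17.7% of all bins. Autosome centres, with 27.5% of all bins, held 35 of the 49. The 2 long runs of V held 23 of them. In limma no bin passed without column b or c of the libraries lacking both, or without met-2 column a or b, although 295, 949, 1007 and 798 bins in these 4 fits had unadjusted p under 0.05. Without met-2 column c, 1687 passed. The difference of all 49 kept its sign in each of these fits. In all 49 the groups did not overlap, so the kept sign adds no separate support.

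The largest difference among called bins was at V 8860001 to 8870000, where recovered IP reads were 1614 and 1473 in the libraries lacking both, beside input reads of 4153 and 3225. The met-2 libraries had 3218, 841 and 2365 IP reads beside 5401, 3788 and 2662 input reads. As enrichment this was -0.72 and -0.61 in the libraries lacking both, against 0.18, 0.20 and 0.012 in met-2. N2 had 0.14, -0.045 and -0.052, so the libraries lacking both lay below N2 as well, as did column a of set-25 with -0.52. The difference was -0.79 ± 0.13 (SE, limma adjusted p = 0.0268). Its neighbours V 8830001 and V 8840001 differed by -0.91 and -0.83 but did not pass (limma adjusted p = 0.138 and 0.0889).

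III 5120001 to 5130000 differed by -0.73, with -1.16 and -0.92 against -0.15, -0.32 and -0.46 in met-2. III 8850001 to 8860000 differed by -0.72, with -0.96 and -0.83 against -0.10, -0.15 and -0.28 in met-2. Both bins were depleted in N2, at means of -1.31 and -1.20, and the libraries lacking both lay between met-2 and N2. V 17150001 to 17160000 was the opposite case, with -0.72 and -0.55 in the libraries lacking both, against 0.013, 0.028 and -0.0021 in met-2 and an N2 mean of 0.60. The other bins named by size were V 8560001 with -0.71, V 6410001 with -0.63, I 4370001 with -0.62 and II 8090001 with -0.60.

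On the higher side no bin passed limma in the fit reported, with 526 at unadjusted p under 0.05, and the 4 largest of these are given as values. The number higher was 46 after division by the SD, 6 with the input of the same column letter, 5 with voom weights and 569 without met-2 column c. I 1310001 to 1320000 had 0.77 and 0.60 in the libraries lacking both, against 0.11, 0.34 and 0.20 in met-2, with a limma adjusted p of 0.105. I 1920001 to 1930000 had 1.28 and 1.18, against 0.60, 0.66 and 1.07 in met-2. III 13000001 to 13010000 and II 14950001 to 14960000 each differed by 0.44. All 4 are enriched in N2, with means of 0.92, 1.55, 0.78 and 1.06, so the libraries lacking both were nearer to N2 than met-2 was.

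Input and IP were also tested apart. In IP alone limma called 833 bins (8.31%), 568 lower and 265 higher, and this number was 31 without column b of the libraries lacking both, 307 without their column c, 391, 122 and 3097 without met-2 column a, b and c. In input alone it called 25 (0.249%), 24 lower and 1 higher, and 22 of these lay in V 2348001 to 2563000. With all 18 libraries in the fit 472 bins passed limma's test in IP alone and 0 in input alone, where 22 had unadjusted p under 0.05. None of the 25 was among the 49 called bins. Across V 2350001 to 2560000 input differed between the libraries lacking both and met-2 by -1.22 to -0.97 in 21 bins, all of them passing in input alone, and the enrichment was 0.18 and 0.24, against -0.064, 0.24 and 0.14 in met-2. The groups overlapped in enrichment there, and 0 of the 21 bins passed limma's test on the difference.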

How the data were processed

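Per the file header and its values, the authors deposited 1 table of 200538 windows of 500 bp with log2 values for 18 libraries: each is log2 of scaled reads plus 2, with every library scaled to 35.2 M reads. Whole reads were recovered for 100% of values, within 0.01. All values are therefore relative. No aligner, filter or treatment of duplicates is named by the sources used here. Per the submitters' processing notes the build is ce10. Chromosome lengths of the table differ from that build, so coordinates are those of the table and no gene was assigned.

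Columns carry letters a to c that are not tied to replicate numbers. They were used as replicates with no number. The labels call replicates independent biological samples. Replicates differed beyond sampling noise, with chi-square per degree of freedom of 6.71 to 39.5 in 8 pairs. The libraries, intervals and regions were chosen with earlier results of these data known.

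Windows were averaged into 10-kb bins and 100-kb segments, each with at least 10 mean input reads, and into the 3 parts of each chromosome. The difference of IP and input between groups was fitted with limma 3.58.1 in R 4.3.3 on 10 libraries in 4 groups, with 6 residual degrees of freedom and Benjamini-Hochberg adjustment. Contrasts were compared by exact two-sided permutation tests in scipy 1.17.1. Enrichment values of a group share 1 input mean, so their SD leaves out the error of the inputs. Bins named are the 8 largest past adjusted p 0.05 without overlap, at most 1 per 100 kb, or the 4 largest at unadjusted p under 0.05 where fewer than 4 passed. Segments named are the 5 largest each way, and the runs and the 3 segments enriched in N2 were picked after their values were seen. The fits were tested on simulated data. Alternatives were other scalings, pseudocounts of 0.5 and 8, log2 of summed reads, a band of input coverage, voom weights and all 18 libraries. Others were the input of the same letter, a block by letter and each column letter of a group left out, IP together with input.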

Additional observations from a re-analysis of the deposited data

How the results depend on the processing

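The 49 bins called at 10 kb became 275 after division of profiles by their SD, 22 with all 18 libraries and 104 with the input of the same column letter. They became 0 to 1687 with 1 column letter of met-2 left out, IP and input together. The 50 segments became 213, 13 and, with log2 of summed reads, 33, and 7 to 292 with 1 column letter of met-2 left out. The cause was not tested. The letters b and c were also used as a block. IP deviations of same-lettered libraries correlated at -0.11 and -0.53 and those of inputs at 0.51 and 0.80, over only 2 letters whose deviations mirror each other, so whether the letters pair the libraries cannot be settled from the data, and the labels do not tie them. With this replicate block 0 bins (1305 at unadjusted p under 0.05 in limma) and 38 segments passed. Of 18 chromosome parts, 3 passed with median-centred values and 4 after division by the SD. The difference in X left contrast turned to -0.013 after division by the SD and to -0.012 with medians over bins. It ran from -0.011 to 0.012 with 1 column letter of either group left out. After division by the SD the part differences turned to -0.032 (IV left), -0.069 (IV right), -0.064 (V left), -0.092 (V right) and 0.17 (X middle), and X middle was 0.0016 with median-centred values. With 1 column letter left out the part differences ran from -0.068 to 0.0025 in I right, -0.035 to 0.042 in II left and -0.055 to 0.0042 in II right. In the same fits they ran from -0.017 to 0.036 in IV left and -0.0070 to 0.024 in V right. On X they ran from -0.0030 to 0.071 in X left and -0.046 to 0.029 in X middle. The arm contrast kept its direction in every alternative run, from 0.080 to 0.23. Fitted differences of the named bins and segments kept their sign in every alternative. These bins and segments were chosen for groups that did not overlap, so a kept sign adds little. Of the values of the 8 bins that passed, 46 of 120 were no longer past the threshold, as were 47 of 135 segment values. The comparison has 2 against 3 IP libraries, 1 of them with 8.73 M reads.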
